A study of Mus musculus with 4 samples.

Results

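The metallothionein and zinc export genes followed here are 4 of the 32285 genes in the count matrices: *Mt1* (ENSMUSG00000031765), *Mt2* (ENSMUSG00000031762), *Mtf1* (ENSMUSG00000028890) and *Slc30a1* (ENSMUSG00000037434), matched by symbol. They were chosen by the transcript level of *Mt1*, which had been seen to be much higher in *Meioc*-null early spermatocytes, so their levels by genotype in early spermatocytes are given as a description with no test. The counts are unique molecular identifiers (UMIs), which tag single transcripts, in single cells of testes at postnatal day 15, from 2 wild-type and 2 *Meioc*-null mice of strain C57BL/6N, with 1 testis per mouse. The 2 batches each paired a wild-type mouse with a *Meioc*-null littermate. The *Meioc*-null mice carried the *Meioc* tm1.1Dpc allele, and mice of both genotypes were also heterozygous for *Hspa2* tm1Dix and homozygous for the *ROSA26* tdTomato reporter with its stop codon intact. The interstitium was largely discarded during dissociation with collagenase and trypsin, so interstitial cells are under-represented in every library.

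Metallothioneins are small, cysteine-rich proteins that bind zinc and copper and hold the free zinc of a cell low. MTF1 is a zinc-sensing transcription factor that binds metal response elements in the promoters of *Mt1*, *Mt2* and *Slc30a1*, and *Slc30a1* encodes the exporter that moves zinc out across the plasma membrane. *Mt1* and *Mt2* also respond to glucocorticoids and to oxidative stress in many tissues. *Meioc* is a germ cell gene whose product regulates messenger RNAs, and germ cells without it enter meiosis late and do not complete it.

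*Mt1* (chromosome 8, 94179082 to 94180327, plus strand, 3 exons) and *Mt2* (chromosome 8, 94172664 to 94173568, plus strand, 3 exons) are neighbours on GRCm38, with 5513 bases between them. *Mtf1* (chromosome 4, 124802104 to 124849800, plus strand) has 12 exons and *Slc30a1* (chromosome 1, 191906767 to 191913247, plus strand) has 2. The promoters of the 3 genes that MTF1 is known to bind are shown because the metal response element is the feature that these genes share. The sequences are from RefSeq (GRCm38.p6) and run from 250 bases before the annotated start to 30 bases after it, counted from the RefSeq start of each gene, which differs from the GENCODE start above, 5′ to 3′ on the plus strand, at chr8:94178839-94179118, chr8:94172368-94172647 and chr1:191906531-191906810. Capitals mark matches on either strand to the metal response element core, TGCACNC or TGCGCNC.
Mt1: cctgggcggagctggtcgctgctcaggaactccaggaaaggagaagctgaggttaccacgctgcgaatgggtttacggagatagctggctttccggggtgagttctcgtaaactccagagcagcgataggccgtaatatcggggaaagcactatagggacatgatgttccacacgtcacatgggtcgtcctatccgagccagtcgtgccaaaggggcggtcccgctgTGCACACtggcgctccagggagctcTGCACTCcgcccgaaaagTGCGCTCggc
Mt2: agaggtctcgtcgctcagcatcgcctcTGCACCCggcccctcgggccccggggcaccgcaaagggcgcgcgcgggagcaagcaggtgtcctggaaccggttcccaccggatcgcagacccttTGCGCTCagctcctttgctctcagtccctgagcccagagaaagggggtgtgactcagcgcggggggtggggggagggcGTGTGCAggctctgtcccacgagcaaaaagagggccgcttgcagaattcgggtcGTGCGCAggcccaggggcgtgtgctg
Slc30a1: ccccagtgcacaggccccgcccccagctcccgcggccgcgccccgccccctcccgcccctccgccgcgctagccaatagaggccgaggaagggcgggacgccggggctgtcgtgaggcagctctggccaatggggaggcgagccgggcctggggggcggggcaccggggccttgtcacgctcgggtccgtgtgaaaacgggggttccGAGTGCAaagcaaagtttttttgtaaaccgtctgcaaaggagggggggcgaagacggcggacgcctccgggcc
The window of *Mt1* held 3 matches, that of *Mt2* 4, that of *Slc30a1* 1 and that of *Mtf1* 0. Of 32851 promoter windows of the same length, 24.1% held at least 1 match, 1.73% at least 3 and 0.405% at least 4. The core of the antioxidant response element, TGACNNNGC on either strand, matched once each in *Mt2* and *Slc30a1* and in 11.5% of all windows. A match is a description of the letters and not a measured binding site. Bases outside the windows, such as those more than 30 after the annotated start, were not searched. A motif absent from a window may therefore lie outside it, and the counts do not cover whole promoters.

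Values came from 26225 cells of 56653 barcodes, namely 5644 and 7505 wild-type and 6554 and 6522 *Meioc*-null cells in replicates 1 and 2, with medians of 11702 to 14420 UMIs per cell. Between 12 and 16 cell barcodes were shared by any 2 libraries. Counts of *Meioc* over all cells were 253 and 254 per 1000000 UMIs in the wild-type libraries, against 298 and 235 in the *Meioc*-null ones. These 3′ counts over all cells did not separate the genotypes. In 2 of the clusters described below they were higher in *Meioc*-null. Cluster 9 held 613 and 568 against 805 and 780, and cluster 10 held 475 and 487 against 611 and 681. Such counts do not check the labels. Germ cells fell into 12 clusters, numbered in stage order. Cluster 1 was named undifferentiated spermatogonia, clusters 2 to 7 differentiating spermatogonia and clusters 8 to 11 early spermatocytes, from at least 6 detected markers of the class in wild-type cells. Cluster 8 was mixed by markers, since 5 of 7 differentiating spermatogonia markers were also detected in it, among them *Kit* in 69.0 and 70.1% and *Rhox13* in 98.2 and 96.3% of wild-type cells, and its *Meioc*-null cells held 5 of 8 early spermatocyte markers against 6 of 8 in wild type. Cluster 12 scored as early spermatocyte but was led by *Ldhc*, *Fabp9* and *Piwil1*, which go with pachytene cells, and it was left unnamed. Clusters 11 and 12 held no *Meioc*-null cell, whereas the study, with its own clusters, assigned some *Meioc*-null cells to pachytene spermatocytes. Levels are UMIs per 1000000 UMIs of a library's cells in a cluster (CPM), counted near the 3′ end and not scaled by gene length, so levels of different genes are not ranked against each other.

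*Mt1* was a high transcript of spermatogonia and a low transcript of wild-type early spermatocytes. In undifferentiated spermatogonia *Mt1* reached 1086 and 1318 CPM in the wild-type libraries, against 1003 and 1285 CPM in the *Meioc*-null ones. In differentiating spermatogonia *Mt1* reached 815 and 1043 CPM in the wild-type libraries, against 804 and 987 CPM in the *Meioc*-null ones. Libraries of batch 2 were above those of batch 1 in both genotypes, and the genotypes overlapped.

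Wild-type *Mt1* then dropped away in a pair of steps. It was 746 and 931 CPM in cluster 7, the last of the differentiating clusters, 296 and 339 CPM in cluster 8, and 58.5 and 39.9 CPM in cluster 9. Differentiating spermatogonia therefore held 13.9 and 26.2 times the level of cluster 9 in the 2 wild-type libraries. Clusters 10 and 11 stayed at this low level, with 65.6 and 53.5 CPM and with 63.0 and 63.2 CPM. Cluster 12 was higher again, at 405 and 143 CPM, and its libraries differed widely. Barcodes with 1000 or fewer detected genes held *Mt1* at 627 to 994 CPM in the 4 libraries, and the part of free RNA in the low level of clusters 9 to 11 was not tested.

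**Figure D1:**
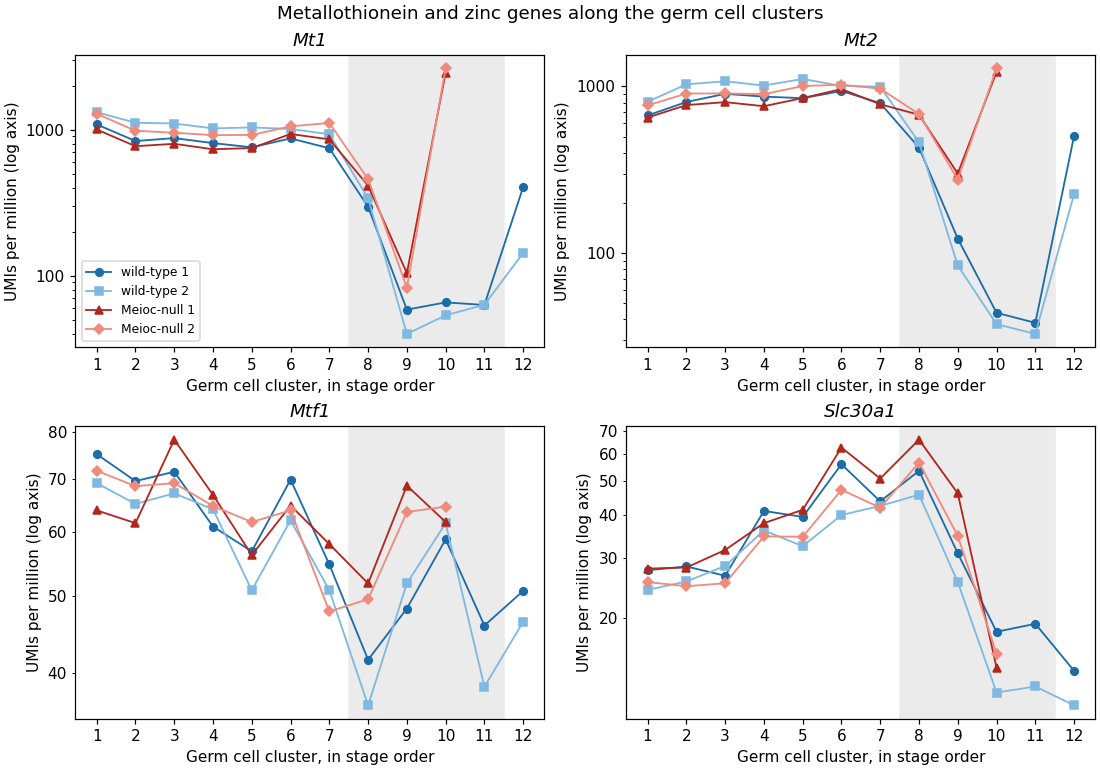
CPM of the 4 genes (log axis) in the 12 germ cell clusters in stage order, with 1 line per library and clusters 8 to 11 (early spermatocytes) shaded; a cluster is drawn for a library with at least 50 cells. The *Meioc*-null lines of *Mt1* and *Mt2* follow the wild-type lines to cluster 7, lie above them from cluster 8 on and part widely in cluster 10, where *Mt1* stands at 2456 and 2636 CPM against 65.6 and 53.5 CPM.

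*Meioc*-null cells took the same steps down to cluster 9, at a higher level, and then departed. *Mt1* was 414 and 458 CPM in cluster 8 and 104 and 82.7 CPM in cluster 9, which is 1.37 and 1.90 times the wild-type mean. In cluster 10 it was 2456 and 2636 CPM, 42.7 times the wild-type mean, and the ratio within littermate pairs was 37.4 in batch 1 and 49.3 in batch 2. This level was also 3.06 and 2.67 times that of differentiating spermatogonia of the same *Meioc*-null libraries, and 23.6 and 31.9 times that of their own cluster 9. The *Meioc*-null levels lay above both wild-type levels in clusters 8, 9 and 10. Over all genes tested, 15.6, 32.6 and 53.8% were called between genotypes in these clusters, by the edgeR rule given below. How many of all genes separate without overlap was not counted. Cluster 10 held 3.27 and 4.34% of all cells in the *Meioc*-null libraries but 10.6 and 10.7% of their *Mt1* UMIs. In wild-type libraries the same cluster held 5.30 and 10.5% of cells and 0.377 and 0.482% of *Mt1* UMIs.

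The high level was spread over nearly the whole cluster and did not come from a few cells. Above 500 CPM of *Mt1* in a cell were 192 of 214 cells (89.7%, exact binomial 95% interval 84.8 to 93.4%) in *Meioc*-null replicate 1 and 257 of 283 cells (90.8%, 86.8 to 93.9%) in replicate 2. In wild type the same held for 0 of 299 cells, which allows a share of up to 1.00% taking 3 counts of the total (exact interval 0 to 1.23%), and for 2 of 789 cells (0.253%, 0.0307 to 0.913%). Median cells of cluster 10 held 2203 and 2333 CPM in *Meioc*-null and 49.6 and 0 CPM in wild-type libraries. These intervals cover counting error only. In cluster 9, 11 of 654 and 10 of 642 *Meioc*-null cells passed 500 CPM, against 1 of 398 and 1 of 869 wild-type cells.

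The shares of cells with a UMI differed as widely at equal depth. *Mt1* was detected in 52.5 and 38.8% of wild-type cells of cluster 10, at median depths of 11428 and 11156 UMIs, and in 99.1 and 98.6% of *Meioc*-null cells, at 13795 and 16511 UMIs. With every cell thinned to 3000 UMIs the shares were 17.7 and 13.7% in wild type and at least 94.6% in both *Meioc*-null libraries. Every cell type held *Mt1* UMIs, so none can serve as a type that lacks the gene.

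**Figure D2:**
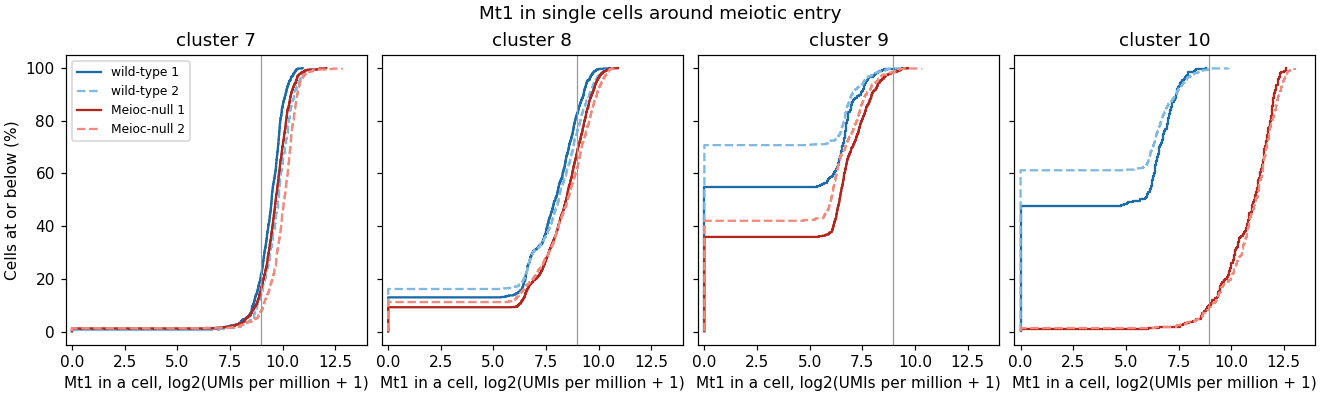
Cumulative share of cells (%) by *Mt1* per cell, log2(CPM + 1), in clusters 7 to 10, with 1 line per library and a grey line at 500 CPM. The 4 libraries lie close together in cluster 7, and in cluster 10 89.7 and 90.8% of *Meioc*-null cells lie above 500 CPM against 0 and 0.253% of wild-type cells.

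*Mt2* fell along the wild-type stages like *Mt1*, but more gradually, reaching its lowest levels in clusters 10 and 11. In cluster 12 it was higher again, at 505 and 226 CPM, and the libraries differed widely. It was 670 and 809 CPM in wild-type undifferentiated spermatogonia, 865 and 1038 CPM in differentiating spermatogonia, 429 and 462 CPM in cluster 8, 122 and 84.2 CPM in cluster 9 and 43.8 and 37.4 CPM in cluster 10. Differentiating spermatogonia held 7.10 and 12.3 times the *Mt2* level of wild-type cluster 9 and 19.8 and 27.7 times that of cluster 10, where the *Mt1* span was 12.4 and 19.5 times. In *Meioc*-null libraries it was 676 and 683 CPM in cluster 8, 300 and 276 CPM in cluster 9 and 1225 and 1287 CPM in cluster 10. The *Meioc*-null mean was thus 1.53, 2.80 and 30.9 times the wild-type mean in these clusters, with no overlap of the libraries. The shares of all genes called in these clusters are those given above for *Mt1*. The *Mt2* ratio was above that of *Mt1* in clusters 8 and 9 and below it in cluster 10.

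The balance of the 2 metallothioneins shifted along the stages. For 1 UMI of *Mt2* there were 1.62 and 1.63 UMIs of *Mt1* in wild-type undifferentiated spermatogonia, 0.942 and 1.00 in differentiating spermatogonia, and 0.481 and 0.474 in cluster 9. The wild-type ratio was at least 1.43 in both libraries of cluster 10 and at least 1.65 in those of cluster 11. *Meioc*-null cells of cluster 9 held 0.348 and 0.299, and those of cluster 10 held 2.01 and 2.05, so the ratio rose from cluster 9 to cluster 10 in all 4 libraries. Within cluster 10 the 2 transcripts went together from cell to cell in *Meioc*-null libraries, with r = 0.646 and 0.770 over 214 and 283 cells. Wild-type cells held on average under 1 UMI of each (0.863 and 0.621 of *Mt1*, 0.575 and 0.435 of *Mt2*), too few for a like comparison. The cells of a library share its depth and its free RNA, so these correlations are a description.

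*Mtf1* shared neither the deep fall along the wild-type stages nor the large difference between genotypes in cluster 10. It was 63.5 and 61.0 CPM in wild-type differentiating spermatogonia, 41.6 and 36.5 CPM in cluster 8, 48.2 and 51.8 CPM in cluster 9 and 58.8 and 61.6 CPM in cluster 10. *Meioc*-null libraries held 51.8 and 49.5 CPM in cluster 8, 68.6 and 63.6 CPM in cluster 9 and 61.8 and 64.6 CPM in cluster 10. The ratios of the genotype means were 1.30, 1.32 and 1.05, with *Meioc*-null higher. The libraries did not overlap in clusters 8 and 9, where 15.6 and 32.6% of all genes were called. In cluster 10 the nearest libraries of the 2 genotypes stood at 61.6 and 61.8 CPM. All 4 libraries of cluster 10 therefore lay within a narrow range of *Mtf1*, while *Mt1* and *Mt2* differed widely there.

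*Slc30a1*, the zinc exporter, was highest around meiotic entry and declined after it in both genotypes. Wild-type levels were 27.6 and 24.2 CPM in undifferentiated spermatogonia, 56.0 and 39.9 CPM in cluster 6, 53.6 and 45.7 CPM in cluster 8, 30.9 and 25.5 CPM in cluster 9 and 18.3 and 12.2 CPM in cluster 10. *Meioc*-null levels were 66.0 and 56.6 CPM in cluster 8, 46.1 and 34.7 CPM in cluster 9 and 14.4 and 15.8 CPM in cluster 10. The *Meioc*-null mean was 1.23 times the wild-type mean in cluster 8 and 1.43 times in cluster 9. The libraries did not overlap there, in clusters where 15.6 and 32.6% of all genes were called. In cluster 10 the *Meioc*-null mean was 0.989 times the wild-type mean and the libraries overlapped.

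The *Meioc*-null cells of cluster 10 were placed by their likeness to wild-type cells, and their markers were checked. Clusters were built from wild-type cells alone, so *Meioc*-null cells with no wild-type counterpart were placed in them too. The study described a mutant-only cluster of *Meioc*-null spermatocytes, mainly in G2/M phase. Where the cells of that cluster were placed here was not tested. All 8 early spermatocyte markers were detected in at least 25% of *Meioc*-null cells of cluster 10 in both libraries, but their levels differed in both directions. *Tex101* (3355 and 2746 CPM against 2209 and 1746 CPM), *Ly6k*, *Dmc1* and *Prdm9* were above both wild-type libraries. *Gml* (129 and 127 CPM against 322 and 295 CPM), *Meiob* (189 and 206 CPM against 384 and 356 CPM), *Psma8* and *Rad51ap2* were below them. The *Meioc*-null cells assigned to cluster 10 thus differed from its wild-type cells in the markers themselves, and whether they are at the same stage was not tested. Pachytene markers summed to 278 and 291 CPM against 784 and 686 CPM, and differentiating spermatogonia markers to 936 and 807 CPM against 287 and 259 CPM. Most of the latter difference lay in *Esx1* (557 and 453 CPM against 57.8 and 45.3 CPM) and *Rhox13* (263 and 269 CPM against 145 and 139 CPM), whereas *Kit* overlapped (5.77 and 3.69 CPM against 4.33 and 3.93 CPM). The 6 Leydig markers, of the type with the highest *Mt1*, summed to 8.33 and 8.20 CPM in *Meioc*-null and 7.89 and 7.20 CPM in wild-type cells of cluster 10, and at least 1 UMI of a single Leydig marker was found in at most 8.48% of cells. The 6 Sertoli markers summed to 86.5 and 50.2 CPM against 83.7 and 51.7 CPM. Genes of dissociation and early response summed to 557 and 278 CPM in *Meioc*-null and to 265 and 191 CPM in wild-type cells of cluster 10, and the part of this difference in the result was not tested.

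*Mt1* varied within *Meioc*-null cluster 10. Cells were ranked in each library by the summed level of 10 G2/M phase genes and divided into 3 equal groups. *Mt1* was 3060 and 3574 CPM in the lowest group and 1951 and 2178 CPM in the highest. By summed early spermatocyte markers it was 2862 and 2974 CPM in the lowest group and 2290 and 2324 CPM in the highest. By depth it was 1672 and 1980 CPM in the shallowest cells and 2904 and 2844 CPM in the deepest. By dissociation and early response genes it was 1991 and 2319 CPM in the lowest group and 2928 and 2839 CPM in the highest, and the part of these genes was not tested. Even the lowest of these groups lay far above every wild-type group of the cluster, the highest of which held 77.8 CPM. In cluster 8, *Mt1* was higher in the cells lowest in early spermatocyte markers in all 4 libraries, with 385 against 204 CPM, 489 against 183 CPM, 593 against 204 CPM and 692 against 192 CPM in the lowest and highest groups. Both ends of cluster 8 thus lay between the levels of cluster 7 and cluster 9 in every library.

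The comparison by genotype before the early spermatocyte clusters, which the choice of genes did not rest on, asked whether the genes already differed between wild-type and *Meioc*-null spermatogonia. None of the 4 genes was called in clusters 1 to 7 or in the pooled differentiating spermatogonia, in 32 tests with edgeR's quasi-likelihood test on summed UMIs. A call needed a Benjamini-Hochberg adjusted p under 0.05 over all genes tested in the cluster and an absolute log2 fold change, wild-type over *Meioc*-null, above 0.1. The same rule called 0% of all genes tested in undifferentiated spermatogonia, where 231 of 14573 genes had an unadjusted p under 0.05. It called 0.0301, 0.0647, 0.120, 0.0339, 0 and 1.16% in clusters 2 to 7, and 0.0125% in the pooled differentiating spermatogonia. Of the 32 tests, none reached an unadjusted p under 0.05. No gene of the 4 was called by DESeq2.

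With the littermate pair as a block, 8 of all 47 tests of the 4 genes outside early spermatocytes had an unadjusted p under 0.05, and none was called. Under the same block, such a p was reached by 540 of 13296 genes in cluster 2 and by 2125 of 11385 in cluster 7, with 1590 of 16053 in differentiating spermatogonia. In Sertoli and myoid cells 725 of 11402 and 481 of 12597 genes reached it. The block called 29 genes in cluster 2, 720 in cluster 7, 142 in differentiating spermatogonia, 135 in Sertoli and 58 in myoid cells. Within both pairs *Mt1* was higher in wild type in clusters 1 to 5, by log2 ratios of 0.02 to 0.21, and higher in *Meioc*-null in clusters 6 and 7, by −0.06 to −0.26. The standard errors that follow are from the fit without the block and include the difference between batches. In differentiating spermatogonia the log2 fold change was 0.10 for *Mt1* (SE 0.23), 0.16 for *Mt2* (SE 0.21), 0.01 for *Mtf1* (SE 0.10) and 0.03 for *Slc30a1* (SE 0.12). In undifferentiated spermatogonia it was 0.08 (SE 0.20), 0.07 (SE 0.18), 0.09 (SE 0.12) and −0.03 (SE 0.13) for the same genes. The largest difference of *Mt1* toward *Meioc*-null was in cluster 7, with 858 and 1111 CPM against 746 and 931 CPM. Its log2 fold change there was −0.20 (SE 0.23, edgeR adjusted p = 0.864). Within littermate pairs *Mt1* of cluster 7 was 1.15 and 1.19 times the wild-type level. The 2 batches agreed in direction there, and with the littermate pair as a block the edgeR adjusted p was 0.312. The difference between batches, 1.27 times, was larger than that between genotypes, but the ratios within pairs do not contain it.

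**Figure D3:**
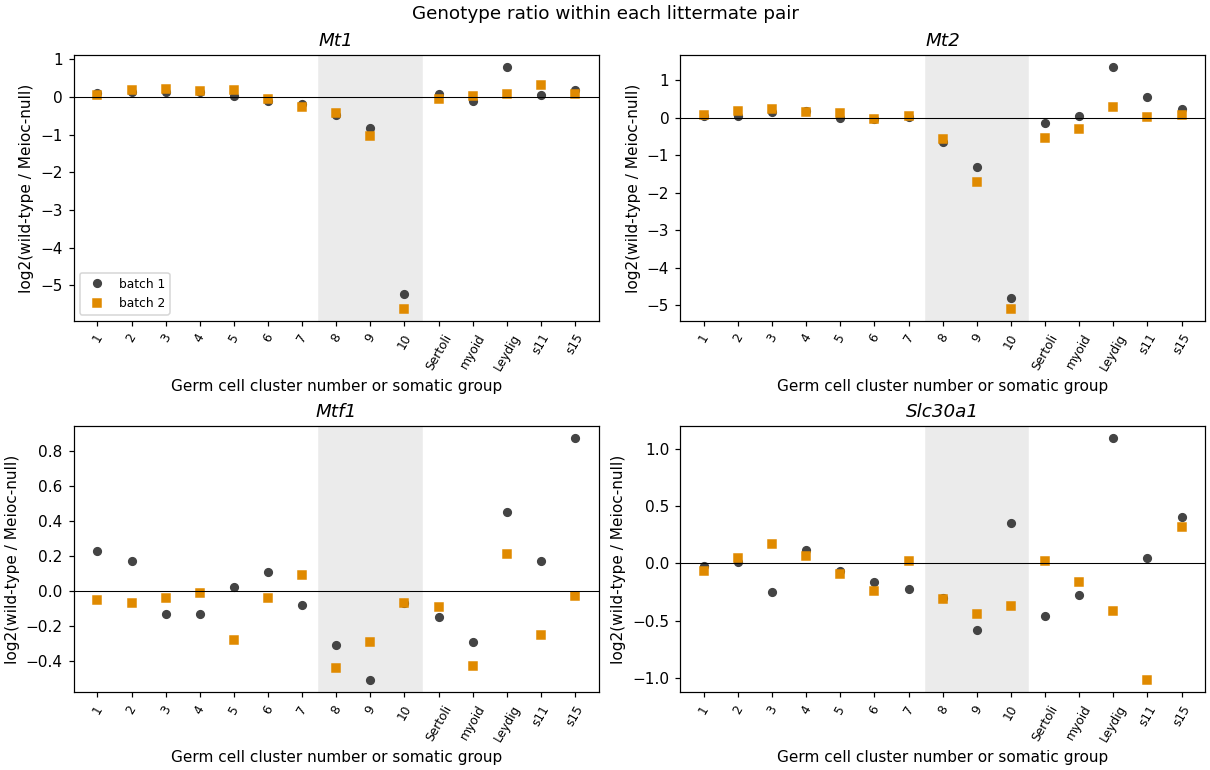
log2 ratio of wild-type over *Meioc*-null CPM within each littermate pair (batch 1 circles, batch 2 squares) for the 4 genes by cluster or type, where values below 0 are higher in *Meioc*-null and clusters 8 to 10 are shaded. *Mt1* and *Mt2* lie near 0 in clusters 1 to 7 and reach −5.23 and −5.62 for *Mt1* in cluster 10, while the axis of *Mtf1* spans less than 2 units.

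Somatic types differed widely in *Mt1*, and each named type held less *Mt2* than any spermatogonial cluster. Sertoli cells, the nurse cells of the tubule, held 607 and 742 CPM of *Mt1* and 134 and 125 CPM of *Mt2* in wild-type libraries. Most of them were shallow, with medians of 2269 and 3635 UMIs. The type joined a cluster with a median of 2146 UMIs per wild-type cell and another with a median of 37098. Summed UMIs give the deep cells more weight, and the part of this mixture in the Sertoli levels and tests was not tested. Barcodes with 1000 or fewer genes held *Mt1* at 627 to 994 CPM and *Mt2* at 420 to 629 CPM, and the part of free RNA in the somatic levels was not tested. Peritubular myoid cells, the contractile sheath of the tubule, held 601 and 1201 CPM of *Mt1* and 53.8 and 62.0 CPM of *Mt2*. Leydig cells, which make testosterone, had the highest *Mt1* of any named type, 2148 and 2873 CPM in wild-type libraries, from 32 and 57 cells. Their *Mt2* was 404 and 415 CPM.

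The remaining cells fell into a cluster led by *Dcn*, *Clec3b* and *Gsn* (cluster s11), which had too few detected markers for a name, and a cluster of shallow cells (cluster s15), with medians of 2618 and 2902 UMIs per wild-type cell, which was left unnamed although its best match was to germ cells. A last unnamed cluster, led by *S100a4* and *Cd52*, held 2 to 51 cells per library and is not described. Cluster s11 held *Mt1* at 1197 and 945 CPM and cluster s15 at 1381 and 1693 CPM. *Mtf1* was 19.8 and 23.4 CPM in Sertoli and 17.6 and 14.1 CPM in myoid cells, below every germ cell cluster. *Slc30a1* was 34.0 and 41.9 CPM in Sertoli cells, within the range of the spermatogonial clusters, and 9.22 and 10.1 CPM in myoid cells.

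**Figure D4:**
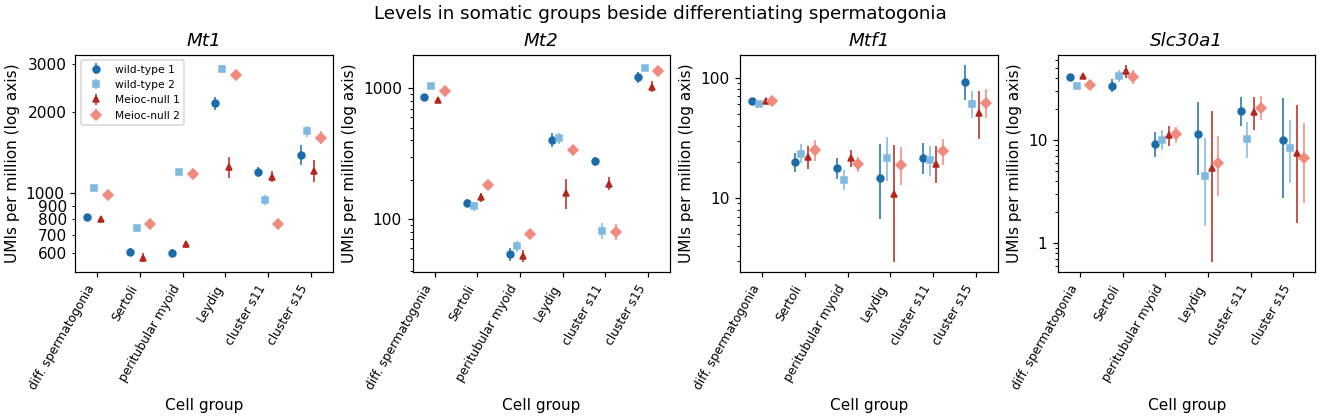
CPM (log axis) of the 4 genes in differentiating spermatogonia and the somatic or unnamed groups, 1 point per library with its exact Poisson 95% interval, which covers counting error only. *Mt2* is 865 and 1038 CPM in wild-type differentiating spermatogonia and 53.8 and 62.0 CPM in myoid cells, whereas *Mt1* of these types overlaps.

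The order of wild-type levels over 16 clusters and types with at least 50 cells in both wild-type libraries showed where neighbours could be told apart. For *Mt1* the order ran from cluster s15 through cluster 1, cluster s11, the differentiating clusters and myoid cells, all overlapping with their neighbours from cluster 1 on, to Sertoli cells at a mean of 675 CPM. Sertoli cells were apart from cluster 7 above, at 742 against 746 CPM for the nearest libraries, and from cluster 8 below, but lay within the range of myoid cells. Clusters 8 and 12 followed and overlapped, and clusters 11, 10 and 9 came last, at means of 63.1, 59.6 and 49.2 CPM, and overlapped. For *Mt2* the germ cell clusters 3, 5, 6, 4, 2, 7 and 1 overlapped in a chain at means of 988 down to 740 CPM, myoid cells stood at 57.9 CPM, and clusters 10 and 11 were last at 40.6 and 35.4 CPM. For *Slc30a1* cluster 8 was first at a mean of 49.7 CPM and overlapped with cluster 6, its neighbour, but lay above cluster 7, and cluster s15 was last at 9.19 CPM. *Mtf1* was highest in cluster s15 and cluster 1, at means of 76.5 and 72.1 CPM, and these overlapped.

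By genotype, none of 15 tests in Sertoli, myoid, s11 and s15 cells was called by edgeR, against 0.509% of all genes tested in Sertoli cells, 0.103% in myoid cells, 0.0375% in cluster s11 and 0.0478% in cluster s15. DESeq2 called none either. *Mt2* of Sertoli cells had the only unadjusted p under 0.05, with 134 and 125 CPM in the wild-type libraries, against 147 and 184 CPM in the *Meioc*-null ones. Its log2 fold change was −0.32 (SE 0.16), at an edgeR adjusted p of 0.954. *Mt1* of Sertoli cells was 607 and 742 CPM against 579 and 770 CPM, and its log2 fold change was 0.04 (SE 0.18). In myoid cells *Mt1* was 601 and 1201 CPM against 648 and 1181 CPM, so the batches differed by 1.91 times and the genotypes overlapped. *Slc30a1* of cluster s15 had too few UMIs to test. Leydig cells were not tested, since only 20 to 70 cells per library were found. Their *Mt1* was 1245 and 2737 CPM in *Meioc*-null libraries, 1 of which lay below both wild-type libraries. Their *Mt2* was 158 and 340 CPM, below the 404 and 415 CPM of wild type in both pairs, from 20 and 70 cells.

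Whether the genotype effect differed between classes was tested with limma on the difference of log2 CPM within each library. None of the 4 genes was called in the comparisons of differentiating spermatogonia with undifferentiated spermatogonia, Sertoli cells or myoid cells, in which 0.0850, 0.0541 and 0% of all genes were called. At an unadjusted p under 0.05 stood 763 of 14118, 510 of 11083 and 291 of 11958 genes. The *Mt2* difference between Sertoli cells and differentiating spermatogonia was the nearest to a call, at −0.46 (SE 0.15, limma adjusted p = 0.741). With the littermate pair as a block its SE was 0.11 (limma adjusted p = 0.0599), still not a call. That block called 116 of 11083 genes. Cluster 8, whose leading genes included *Stra8* and *Gm4969* (*Meiosin*), was named early spermatocyte by its markers. No germ cell cluster was left between the last differentiating and the first early spermatocyte cluster, and no comparison was made for meiotic entry.

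The genes most like each of the 4 in wild type were found by Pearson's r of log2(CPM + 1) over 32 library sums of 16 clusters and types, among 9146 genes. The sums of a library share its depth and batch, and these values have no test. For *Mt1* they were *Lamtor4* (r = 0.944), *Acadm* (0.938), *Mrpl23* (0.934), *Glo1* (0.932) and *Nme2* (0.928). For *Mt2* they were *Rpa1* (0.938), *Uck2* (0.924), *Dnph1* (0.921), *Nubp1* (0.921) and *Eif2b4* (0.921). For *Mtf1* they were *Fdxacb1*, *Eed* and *Ndc80* (at least 0.949), *Rbm48* (0.944) and *Ddx46* (0.938). For *Slc30a1* they were *Ap3b1* (0.883), *Tbc1d10b* (0.873), *Plekha7* (0.867), *Sorl1* (0.865) and *Npnt* (0.860). *Mt1* and *Mt2* had r = 0.717 with each other, *Mt1* and *Mtf1* 0.00893, and *Mt1* and *Slc30a1* 0.139. *Mt2* had r = 0.587 with *Mtf1* and 0.441 with *Slc30a1*, and *Mtf1* and *Slc30a1* had 0.249.

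The other genes of zinc and stress handling were followed in lists of 101 genes, to show what else moved in cluster 10. Of 80 listed genes tested there, 43 were called and 36 of these were higher in *Meioc*-null, while 53.8% of all genes tested in the cluster were called and 27.8% were called higher in *Meioc*-null. Of the 80, 10 passed the filter of 40 UMIs only through the *Meioc*-null libraries, in that the wild-type level alone would not have given 40 UMIs, and none only through the wild-type libraries. The counts and medians by list below leave out these 10, and over all lists 35 of the other 70 were called, 28 of them higher in *Meioc*-null. The values over all genes of cluster 10 were not reduced in this way and can hold such genes. Of the 5835 genes called over all genes there, 3016 were higher in *Meioc*-null. Cluster 10 thus differed between genotypes across the transcriptome, and a call by itself is no sign of a particular response. In cluster 9, 36 of 80 listed genes were called against 32.6% of all genes, and 30 were higher in *Meioc*-null against 18.0%. In cluster 8 the counts were 27 of 86 against 15.6%, and 23 against 9.49%, and 47 were called with the littermate pair as a block, against 33.6% of all genes under the block. In clusters 8 to 11 pooled, 40 of 91 listed genes were called against 32.7% of all genes. Genes that passed the filter only through *Meioc*-null libraries were not taken out of the counts of clusters 8, 9 and the pool. Such genes can only be higher in *Meioc*-null, and these counts and the shares of all genes can hold them.

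**Figure D5:**
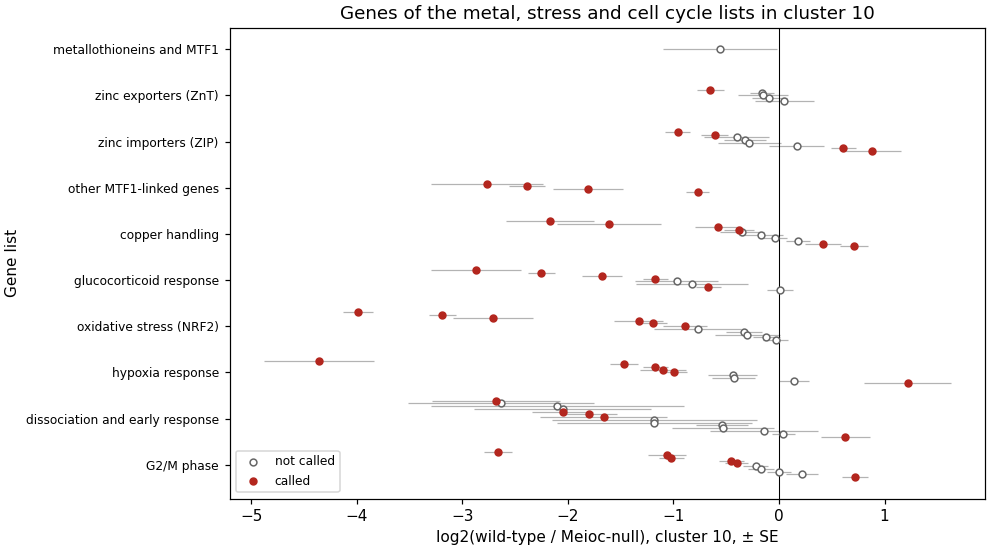
log2 fold change ± SE (wild-type over *Meioc*-null, edgeR) in cluster 10 of each listed gene tested, by list, with called genes filled; values below 0 are higher in *Meioc*-null. In the other MTF1-linked list *Gclc*, *Csrp1* and *Selenow* lie from −0.77 to −2.39, and *Ndrg1*, at −2.77, is drawn although it passed the filter only through the *Meioc*-null libraries.

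Of the 6 other genes linked to MTF1, 4 could be tested in cluster 10, and *Ndrg1* passed the filter only through the *Meioc*-null libraries. The other 3 were called higher in *Meioc*-null, with a median log2 fold change of −1.81 beside −0.01 over all genes tested, where 27.8% of all genes were called higher. *Gclc*, a glutathione synthesis gene, was 82.7 and 73.4 CPM in the wild-type libraries, against 148 and 123 CPM in the *Meioc*-null ones. *Csrp1* was 4.07 and 2.62 against 13.8 and 9.43 CPM. *Ndrg1*, a stress-responsive gene, was 0.509 and 0.764 against 5.77 and 4.30 CPM. *Selenow*, named after its values were seen, was 18.1 and 10.8 against 70.8 and 73.0 CPM. The edgeR adjusted p-values of *Gclc*, *Csrp1* and *Selenow* ran from 2.82e-10 to 8.07e-05. In cluster 8, however, *Selenow* was lower in *Meioc*-null (log2 fold change 0.77, SE 0.12).

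Zinc transporters were called in cluster 10 for 1 of 5 exporters and 4 of 8 importers, against 53.8% of all genes. Of the 5 exporters other than *Slc30a1* tested in cluster 10, only *Slc30a4*, a vesicular exporter, was called, with 39.7 and 38.3 CPM in the wild-type libraries, against 65.7 and 59.4 CPM in the *Meioc*-null ones. Of 8 importers tested, 4 were called, 2 in each direction. *Slc39a9* was 33.8 and 32.6 against 57.3 and 47.4 CPM, and *Slc39a6* was 84.7 and 72.6 against 52.2 and 51.9 CPM. The list medians were −0.15 and −0.30 on the log2 scale. Values of clusters 8 to 11 pooled compare unlike mixtures of clusters. Cluster 8 gave 677 of 1550 and 705 of 2690 wild-type cells but 1566 of 2434 and 1115 of 2040 *Meioc*-null cells of the pool, cluster 11 gave 176 and 327 wild-type cells and 0 *Meioc*-null cells, and the part of this mixture in any pooled value was not tested. In the pooled clusters *Slc30a5*, which loads zinc into the secretory pathway, was higher in *Meioc*-null (27.8 and 25.8 against 52.8 and 44.4 CPM) and *Slc30a3* lower (2.69 and 1.60 against 0.583 and 0.425 CPM). *Slc39a1* was higher there (13.4 and 8.96 against 22.1 and 15.2 CPM), a call that was lost without wild-type replicate 2 (log2 fold change −0.44) or *Meioc*-null replicate 1 (−0.47). *Mt3*, the metallothionein known from brain, was 1.89 and 2.63 against 7.16 and 4.92 CPM in the pooled clusters. It was called higher in *Meioc*-null in cluster 8 (log2 fold change −1.01), and not in clusters 9 (−1.18) and 10 (−0.56). Whether *Mt3* passed the filter of cluster 8 only through the *Meioc*-null libraries was not examined. *Mt4* was at 0 in every library of cluster 10.

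Copper handling genes were called in cluster 10 for 4 of 8, against 53.8% of all genes. The calls were 2 in each direction, and the list median was −0.11. The copper pump *Atp7a* was 10.4 and 13.6 against 21.8 and 16.8 CPM in cluster 10, a call lost without wild-type replicate 1, at a log2 fold change of −0.38, or *Meioc*-null replicate 1, at −0.45. The related pump *Atp7b*, among the 10 left out, was 0.763 and 1.64 against 4.49 and 4.10 CPM. The importer *Slc31a1* was lower in *Meioc*-null in the pooled clusters (102 and 84.9 against 61.1 and 57.8 CPM) and was not called in cluster 10.

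The strongest differences of the oxidative stress list were in the thioredoxin system. Of 10 genes in cluster 10, 5 were called, against 53.8% of all genes. All 5 were higher in *Meioc*-null, so 5 of 10 were called higher, against 27.8% of all genes tested. The list median was −0.83. *Txnrd1*, thioredoxin reductase, was 9.16 and 9.28 CPM in the wild-type libraries, against 145 and 156 CPM in the *Meioc*-null ones, a log2 fold change of −3.99 (SE 0.14, edgeR adjusted p = 3.85e-15). *Txn1*, thioredoxin, was 44.8 and 47.5 against 433 and 434 CPM (−3.19, SE 0.13, edgeR adjusted p = 2.30e-14). *Nfe2l2*, which encodes NRF2, the regulator of this response, was 29.0 and 26.7 against 64.4 and 64.4 CPM. *Txnrd1* and *Txn1* were already called higher in *Meioc*-null in cluster 8, at −0.87 and −0.58, and in cluster 9, at −2.13 and −1.65.

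Glucocorticoid response genes were called for 4 of 6 in cluster 10, against 53.8% of all genes. All 4 were higher in *Meioc*-null, so 4 of 6 were called higher, against 27.8% of all genes tested. The list median was −1.07. *Nr3c1*, the glucocorticoid receptor, was 18.3 and 17.2 against 91.6 and 82.0 CPM. *Sgk1*, among the 10 left out, was 1.27 and 0.982 against 9.93 and 6.97 CPM. *Dusp1*, a phosphatase, was called only in the pooled clusters (5.80 and 2.07 against 15.8 and 8.25 CPM). Hypoxia response genes were called for 5 of 8, against 53.8% of all genes. Called higher in *Meioc*-null were 4 of the 8, against 27.8% of all genes tested, and the list median was −0.71. *Hif1a* was 51.9 and 53.3 against 116 and 126 CPM, and *Adm* was 0.509 and 0.327 against 9.93 and 7.58 CPM and was among the 10 left out. *Ldha*, a lactate dehydrogenase, was lower in *Meioc*-null (9.92 and 5.13 against 4.49 and 2.05 CPM), a call lost without wild-type replicate 1 (log2 fold change 0.83) or *Meioc*-null replicate 2 (0.72).

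Dissociation and early response genes were called for 3 of 11 in cluster 10, against 53.8% of all genes. Called higher in *Meioc*-null were 2 of the 11, against 27.8% of all genes tested, and the list median was −1.18. *Btg2* had a log2 fold change of −1.80. *Ier2* was 7.12 and 3.49 against 24.3 and 17.2 CPM, so batch 1 was above batch 2 in both genotypes. *Dnajb1* was called only in the pooled clusters (133 and 113 against 102 and 95.7 CPM), and this was lost without either *Meioc*-null library (log2 fold changes 0.35 and 0.43). G2/M phase genes were called in cluster 10 for 6 of 10, against 53.8% of all genes. Called higher in *Meioc*-null were 5 of the 10, against 27.8% of all genes tested, and the list median was −0.31. *Plk1* was 18.1 and 18.2 against 115 and 121 CPM, *Ccnb1* 84.0 and 63.5 against 153 and 147 CPM and *Mki67* 219 and 220 against 324 and 291 CPM.

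Outside the early spermatocyte clusters, listed genes were called in Sertoli cells and in cluster 7. With edgeR 0 of 94 listed genes were called in undifferentiated spermatogonia, 0 of 93 in differentiating spermatogonia and 0 of 91 in myoid cells, with 2, 2 and 5 at an unadjusted p under 0.05, and DESeq2 called 0 in each. In cluster 7, 1 of 82 was called against 1.16% of all genes, and 13 had an unadjusted p under 0.05. It was *Btg2*, named after its values were seen, with 19.9 and 20.3 CPM in wild type against 31.8 and 32.3 CPM (edgeR adjusted p = 0.0457). DESeq2 called 0 listed genes in cluster 7, so this call was lost. In Sertoli cells 7 of 86 were called against 0.509% of all genes, and 13 with the littermate pair as a block against 1.18%. *Fos*, *Fosb*, *Junb* and *Egr1* were lower in *Meioc*-null Sertoli cells (198 and 230 against 135 and 139 CPM for *Fos*), and *Mki67*, *Cenpf* and *Top2a* were higher (14.4 and 12.2 against 33.7 and 30.6 CPM for *Mki67*). Without doublet removal 1 of the Sertoli calls was made, and with *Meioc*-null replicate 2 left out 1 was made. With a mitochondrial limit of 5% none was made and *Fos* was −1.06 on the log2 scale, in the opposite direction. No listed metal, oxidative stress, glucocorticoid or hypoxia gene was among the 7.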

How the data were processed

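Single cells from dissociated testes were captured with 10x Chromium 3′ v3.1 chemistry, in 2 wild-type and 2 *Meioc*-null libraries. The authors deposited raw UMI counts per gene and barcode, made with Cell Ranger 4.0.0 on the mm10 reference (GRCm38, Ensembl 98 annotation). The study named cells with Seurat, but its cell names were not used here. Reads were counted near the 3′ end, so counts are not scaled by length, and reads of near-identical copies cannot be split.

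Barcodes with more than 1000 detected genes and under 10% mitochondrial UMIs were kept (29592 of 56653). Scrublet scores were computed in scanpy 1.11.5 (Python 3.11.15), and the highest-scoring barcodes of each library were removed as doublets at 0.8% per 1000 barcodes, because the caller's own threshold marked only 1.77 to 4.54%. Wild-type cells were clustered on 2000 variable genes and 30 principal components, without the 4 genes, the listed genes, or mitochondrial genes. All cells were placed by their 30 nearest wild-type cells, which returned 98.8% of wild-type cells to their own cluster. The requirement of at least 12 germ cell clusters (resolution 0.3) was set after the clusters were seen. A class was given to a cluster where its markers were detected in at least 25% of its wild-type cells.

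UMIs were summed per library and cluster, and CPM was computed from the sums. Genes with at least 40 UMIs over the 4 libraries, in clusters with at least 50 cells in every library, were tested for genotype with the quasi-likelihood test of edgeR 4.0.16 (R 4.3.3), and p-values were adjusted over all genes tested by the Benjamini-Hochberg method. Differences between classes were tested with limma 3.58.1. DESeq2 1.42.0 was an alternative. With 2 mice per genotype, p-values rest on the spread between these libraries. The littermate pair was the replicate number of the labels, and deviations of same-numbered libraries from their genotype means correlated at r = 0.178 to 0.468 over genes in every tested cluster or type except s11 (−0.160), with r = 0.390 over 16053 genes in differentiating spermatogonia. Poisson and binomial intervals cover counting error only.

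The 4 genes, the lists and the tests were chosen with earlier results of these data known. The named genes were the 4 genes, up to 3 called genes per list and class with the largest absolute log2 fold change, and the 5 genes most like each of the 4 among genes of at least 10 CPM on average. The lists were other metallothioneins, zinc exporters, zinc importers, other MTF1-linked genes, copper handling, glucocorticoid response, oxidative stress, hypoxia response, dissociation and early response, and G2/M phase. Promoters were read from RefSeq, and gene positions from the GENCODE annotation of GRCm38. The tests were tried on simulated counts first.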

Additional observations from a re-analysis of the deposited data

Results flagged for a closer look

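The groups compared were clusters 1 to 7, Sertoli, myoid, s11 and s15 cells, without early spermatocytes or Leydig cells. For *Mt1*, *Mt2* and *Slc30a1*, the log2 ratio of wild-type over *Meioc*-null was above 0 in both littermate pairs in some groups. It was below 0 in both pairs in others, and the groups farthest apart among those compared are given for each gene. For *Mt1* the mean ratio was 0.18 in cluster s11 and −0.23 in cluster 7, a difference of 0.41. For *Mt2* it was 0.30 in cluster s11 and −0.35 in Sertoli cells, a difference of 0.65. For *Slc30a1* it was 0.36 in cluster s15 and −0.22 in myoid cells, a difference of 0.58. None of these 3 differences was tested, and many pairs of groups were compared.

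In barcodes outside the cells used, means were listed where both *Meioc*-null libraries lay above both wild-type libraries. The opposite direction was not sought, and the share of all genes that separate in this way was not counted. Among barcodes with more than 1000 genes and 10% or more mitochondrial UMIs, *Mt2* was 294 CPM against 248 CPM in wild type (1.18 times), *Mtf1* 33.4 against 30.8 CPM (1.08 times) and *Slc30a1* 42.9 against 37.0 CPM (1.16 times). Among barcodes removed as doublets, *Mtf1* was 52.6 CPM, 1.05 times the wild-type mean. *Mt1* of the high-mitochondrial barcodes was 606 and 716 CPM in the wild-type libraries, against 594 and 730 CPM, so the genotypes overlapped. These barcodes were not tested.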

How the results depend on the processing

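No call for *Mt1*, *Mt2*, *Mtf1* or *Slc30a1* was made outside early spermatocytes under any alternative that could be run. By genotype within a cluster or type the lowest adjusted p was 0.265 (*Mt2* of cluster 3, edgeR with the littermate pair as a block). For differences between classes it was 0.0599 (*Mt2*, Sertoli cells against differentiating spermatogonia, limma with the same block). The replicate block changed no call of these 4 genes. It raised the listed genes called, summed over clusters 1, 8, 9 and 10, differentiating spermatogonia, Sertoli and myoid cells, from 113 to 170. That gave 47 in cluster 8, 13 in Sertoli cells, 1 in undifferentiated spermatogonia and 1 in myoid cells. Calls over all genes rose too, from 1911 to 4112 of 12232 in cluster 8 and from 58 to 135 of 11402 in Sertoli cells. In undifferentiated spermatogonia they rose from 0 to 64 of 14573, and in myoid cells from 13 to 58 of 12597. In Sertoli cells 12 listed genes were called with no filter, 2 by DESeq2, 1 without doublet removal and 0 at a mitochondrial limit of 5%. Leaving out a library gave 15 to 26 calls in cluster 8, 1 to 10 in Sertoli cells and 0 to 2 in myoid cells. The ratio of *Meioc*-null over wild-type in cluster 10 was 31.8 for *Mt1* and 20.6 for *Mt2* without doublet removal, and 38.1 for *Mt2* at the 5% limit, which left 9 to 29 cells per library. Over the other alternatives *Mt1* was 38.8 to 47.6.

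Small log2 fold changes changed sign. With a library left out, they ran from −0.14 to 0.34 (*Mt1*), −0.14 to 0.26 (*Mt2*), −0.04 to 0.25 (*Mtf1*) and −0.06 to 0.00 (*Slc30a1*) in undifferentiated spermatogonia. In differentiating spermatogonia they ran from −0.15 to 0.34, −0.04 to 0.36, −0.06 to 0.08 and −0.08 to 0.13. In cluster 7 they ran from −0.45 to 0.10 (*Mt1*), −0.17 to 0.33 (*Mt2*) and −0.01 to 0.09 (*Mtf1*), in Sertoli cells from −0.18 to 0.29 (*Mt1*) and −0.22 to 0.05 (*Mtf1*), and in myoid cells from −0.62 to 0.60 (*Mt1*) and −0.44 to 0.27 (*Mt2*). In cluster 10 they ran from −0.17 to 0.14 (*Slc31a1*), −0.01 to 0.08 (*Dnajb1*) and −0.75 to 0.05 (*Slc39a1*). *Mtf1* of differentiating spermatogonia was −0.01 with the 25% detection filter. At the 5% limit *Mt2* of Sertoli cells was 0.28, *Mt1* of myoid cells −0.01, and in Sertoli cells *Cenpf* was 0.20, *Top2a* 0.08, *Junb* −0.80 and *Fos* −1.06. The cause of these changes was not tested. Tests at the 5% limit were not used for clusters with under 50 cells in a library, namely clusters 1 to 3 and 5 to 10, or for clusters 8 to 11 pooled. With 2 libraries per genotype, leaving 1 out assumes that the lone library varies like the others.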
